A study of Mus musculus with 9 samples.

Results

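The transcripts described here come from 8 genes of cholesterol synthesis and its control: Hmgcs1, Idi1, Fdps, Sqle, Cyp51 and Msmo1, which encode enzymes, and Insig1 and Srebf2, which encode regulators. They were chosen by gene symbol, and all 8 were found among the 23282 entries of each count table. All 8 also passed the filter on low counts, which left 13740 genes to test. None of the 8 is itself an uptake receptor, so uptake genes enter only through a wider list further on.

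The libraries came from back skin of wild-type C57BL/6 (B6) mice and fell into 3 groups of 3. Unstripped skin (labelled None) and tape-stripped skin (TS) carry the label of a control cream, and the third group (TS_NGO) was tape-stripped and received a cream with graphene oxide of nanometre size (NGO), at 50 µg in 100 µL per mouse. Graphene oxide is an oxidised carbon sheet material. Tape stripping pulls off the outer layers of the epidermis and injures the skin barrier, and skin was collected 24 h after treatment. The treatment protocol places cream on the stripped area alone, so whether the unstripped skin carried any was not settled by the labels. Age and sex are not in the labels, and no label says that replicates are separate animals. The p-values here judge group differences against the variation among these samples, which may not be variation between animals.

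Cells make cholesterol from acetyl-CoA. The mevalonate pathway builds isoprenoid units that are joined to farnesyl diphosphate and squalene, and squalene is oxidised, closed to lanosterol and trimmed to cholesterol. When sterols run low in the endoplasmic reticulum, SCAP carries SREBP-2 (the product of Srebf2) to the Golgi, where proteases release a transcription factor that switches on genes of the pathway; INSIG1 holds SCAP back when sterols are plentiful. In skin, keratinocytes make much of their own cholesterol, which together with ceramides and free fatty acids forms the lipid layers of the outer barrier, and sebaceous glands also make sterols and their precursors.

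SREBP proteins bind sterol regulatory elements near the start of their target genes, usually beside sites for NF-Y (CCAAT) and Sp1 (GGGCGG). The stretches upstream of the RefSeq start (GRCm38.p6) are shown for Hmgcs1, Insig1 and Srebf2. That of Hmgcs1 held the letters TCACNCCAC of a sterol regulatory element, and those of Insig1 and Srebf2 held CCAAT. Hmgcs1 was called in the data, and Insig1 and Srebf2 were not. Cyp51 and Msmo1 were called too, and held no TCACNCCAC in the 250 bases before the start. Sites that differ from this string were not searched for, so its absence does not show that a promoter lacks the element. The Hmgcs1 stretch ends at the RefSeq start, and those of Insig1 and Srebf2 end just before the start that GENCODE gives, which lies further upstream. Capitals mark TCACNCCAC and CCAAT on either strand (ATTGG where CCAAT lies on the other strand). The Hmgcs1 stretch is chr13:119690101-119690350 on the plus strand, that of Insig1 is chr5:28071162-28071362 on the plus strand, and that of Srebf2 is chr15:82147019-82147180 on the plus strand.
Hmgcs1: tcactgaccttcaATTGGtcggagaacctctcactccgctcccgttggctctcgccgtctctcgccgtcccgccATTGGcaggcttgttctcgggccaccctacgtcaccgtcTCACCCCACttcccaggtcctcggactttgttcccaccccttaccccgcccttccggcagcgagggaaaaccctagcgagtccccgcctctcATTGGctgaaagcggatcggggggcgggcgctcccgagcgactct
Insig1: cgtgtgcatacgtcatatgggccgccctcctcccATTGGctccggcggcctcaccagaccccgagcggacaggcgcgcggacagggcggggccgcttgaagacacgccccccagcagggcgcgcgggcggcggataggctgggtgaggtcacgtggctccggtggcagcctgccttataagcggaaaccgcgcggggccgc
Srebf2: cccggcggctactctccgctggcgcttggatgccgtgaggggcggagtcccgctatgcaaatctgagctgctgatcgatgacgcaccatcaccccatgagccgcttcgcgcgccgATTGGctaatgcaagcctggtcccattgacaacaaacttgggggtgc
The match in Hmgcs1 lay 137 to 129 bases before the start, and 3 CCAAT boxes lay around it. Of the 8 genes, 6 had an entry in the promoter table (Sqle and Fdps had none). Over the 250 bases before the start and on both strands, TCACNCCAC was found in 1 of those 6 and in 1.05% of 32851 promoters, CCAAT in 6 of 6 and 33.8%, GGGCGG in 6 of 6 and 32.7%, and CACGTG (an E-box) in 1 of 6, Insig1, and 6.02%. In the 6 windows no match to 1 of these strings overlapped a match to another. A match describes the letters of the window and does not show that a factor bound there.

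In the mm10 build, with GENCODE M21 gene models, Hmgcs1 lies at chr13:119690379-119708260 on the plus strand, Idi1 at chr13:8885501-8892451 (plus), Fdps at chr3:89093588-89101959 (minus) and Sqle at chr15:59315077-59331192 (plus). Cyp51 lies at chr5:4081145-4104746 (minus), Msmo1 at chr8:64718139-64733792 (minus), Insig1 at chr5:28071363-28078662 (plus) and Srebf2 at chr15:82147181-82205379 (plus). Cyp51 shares 166 exon bases with Akap9 on the opposite strand, which is also in the count tables. Whether the counting used strand is not stated, so Cyp51 carries that doubt. Quant-Seq libraries tag the end of a transcript, so the counts do not tell splice forms apart.

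Total counts per library ran from 2019739 to 6303322. The tissue content of the libraries differed by group. The mean share of skeletal muscle markers (mouse skin lies on a thin muscle sheet) was 0.0709% for None, 7.08% for TS and 3.02% for TS_NGO (n = 3). The ribosomal RNA precursor entry Rn45s took 13.2% to 16.0% of counts in unstripped, 22.1% to 25.1% in stripped control and 9.35% to 21.0% in NGO-treated libraries. Since this is bulk tissue, fewer cells of a type and less RNA per cell cannot be told apart.

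Together the 8 genes took 0.105%, 0.105% and 0.112% of all counts in unstripped replicates 1 to 3. They took 0.0527%, 0.0273% and 0.0226% in stripped control skin, and 0.100%, 0.112% and 0.0687% in NGO-treated skin. The stripped control libraries were thus the 3 lowest. After stripping, Hmgcs1, Cyp51 and Msmo1 fell, and with the NGO cream the same 3 genes were higher than in stripped control skin; no other of the 8 was called in either comparison. A gene is called here at an adjusted p under 0.05 (Benjamini-Hochberg, over all genes tested) in edgeR's quasi-likelihood test. Levels are CPM, counts scaled to a common library size with TMM factors, and changes are log2 fold changes with their standard error (SE).

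**Figure D1:**
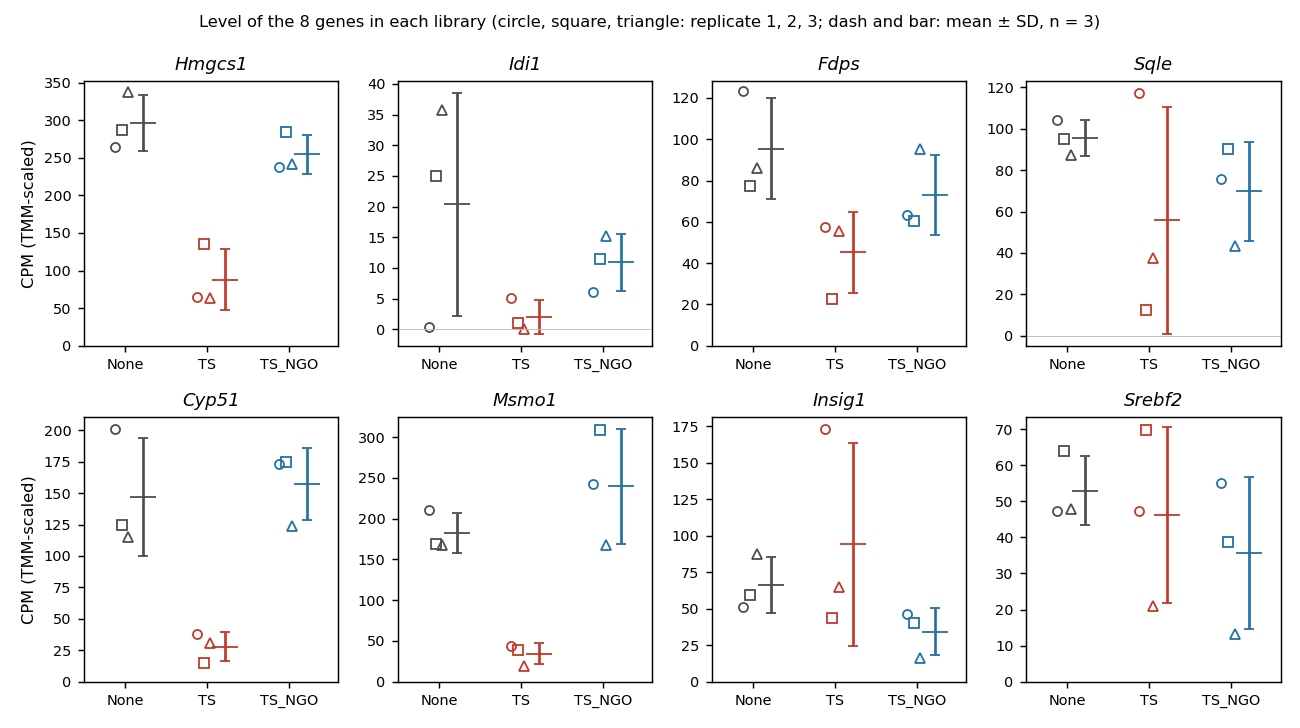
Level of each of the 8 genes (CPM, linear axes, 1 panel per gene) in the 9 libraries; open symbols are the libraries, the dash and bar are the mean and SD (n = 3). Hmgcs1, Cyp51 and Msmo1 show all TS libraries below all libraries of both other groups, while in Sqle and Insig1 the TS replicate marked by a circle stands above the other 2.

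Hmgcs1 encodes the cytosolic HMG-CoA synthase, which commits acetyl-CoA units to the mevalonate pathway. Its level was 264, 287 and 338 CPM in the unstripped replicates, 65.3, 135 and 63.0 CPM in the stripped control replicates, and 238, 284 and 242 CPM in the NGO-treated replicates. Stripped control libraries lay below all others, with 135 CPM the highest of them, and NGO-treated and unstripped libraries overlapped. Hmgcs1 fell by 1.75 on the log2 scale after stripping (SE 0.35, adjusted p = 0.00417). It was 1.53 higher with NGO than in stripped control skin (SE 0.35, adjusted p = 0.0253). That second call was the less firm of the pair: it was lost when only those 2 groups were fitted, without TS replicate 3 (adjusted p = 0.0638), or without NGO replicate 1 (0.0709), 2 (0.0798) or 3 (0.0711). Between NGO-treated and unstripped skin the difference in Hmgcs1 was -0.22 (SE 0.34, 95% interval -0.95 to 0.51, adjusted p = 0.956).

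Cyp51 encodes lanosterol demethylase, the cytochrome P450 that takes a methyl group off the first ring-closed sterol. It measured 201, 125 and 115 CPM in unstripped, 37.6, 14.9 and 31.0 CPM in stripped control, and 173, 175 and 124 CPM in NGO-treated replicates. The lowest NGO-treated library stood well above the highest stripped control library. Cyp51 fell by 2.41 (SE 0.42, adjusted p = 0.00179) after stripping and was 2.50 higher (SE 0.43, adjusted p = 0.00613) with NGO than in stripped control skin. NGO-treated against unstripped skin gave 0.10 (SE 0.40, 95% interval -0.76 to 0.96).

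Msmo1 encodes the methylsterol monooxygenase that acts on the sterol ring later than Cyp51. It had 210, 169 and 168 CPM in unstripped skin, 44.2, 38.8 and 19.8 CPM in stripped control skin, and 243, 309 and 167 CPM in NGO-treated skin. Again the 3 stripped control values were the 3 lowest, and the other groups overlapped. Msmo1 fell by 2.41 (SE 0.39, adjusted p = 0.00093) and was 2.81 higher with NGO (SE 0.39, adjusted p = 0.00236), the largest change among the 8 genes that was called. Its difference between NGO-treated and unstripped skin was 0.39 (SE 0.36, 95% interval -0.39 to 1.18). Both calls of Cyp51 and of Msmo1 were kept under all 18 other settings.

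Sqle encodes squalene epoxidase, which adds the first oxygen to squalene and is a rate-limiting step of the later pathway. Its levels were 104, 95.0 and 87.4 CPM in unstripped, 117, 12.3 and 37.7 CPM in stripped control, and 75.7, 90.4 and 43.5 CPM in NGO-treated skin. The stripped control libraries spanned the whole range, since replicate 1 held the highest value of the 9 and replicate 2 the lowest. Sqle was not called after stripping (-0.79, SE 0.62, adjusted p = 0.476), nor with NGO against stripped control skin (0.33, SE 0.62, adjusted p = 0.819). TS replicate 1 weighed on the first of these: without it the fitted difference after stripping was -1.86 (adjusted p = 0.0300), which is a call. The difference with NGO against stripped control skin was not called in any of the 18 other settings. Limma-voom with sample weights also called Sqle lower after stripping (-1.71, adjusted p = 0.0386).

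Fdps encodes farnesyl diphosphate synthase, whose product feeds both sterols and non-sterol isoprenoids. It measured 123, 77.1 and 86.2 CPM in unstripped skin, 57.6, 22.6 and 55.6 CPM in stripped control skin, and 63.4, 60.5 and 95.5 CPM in NGO-treated skin. Here too the 3 stripped control libraries were the lowest, but the gaps were small: the highest of them was 57.6 CPM and the lowest NGO-treated value 60.5 CPM. Neither difference was called (-1.08, SE 0.45, adjusted p = 0.136; 0.69, SE 0.45, adjusted p = 0.407).

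Idi1 encodes the isomerase that interconverts the isoprenoid building blocks, and it had the fewest counts of the 8. The raw counts were 1, 85 and 122 in unstripped, 10, 3 and 0 in stripped control, and 20, 50 and 92 in NGO-treated replicates. On the CPM scale these were 0.342, 24.9 and 35.8, then 5.15, 0.970 and 0, then 6.01, 11.5 and 15.2. All NGO-treated values exceeded all stripped control values, while unstripped replicate 1 lay far below the other 2 of its group. A floor of 3 counts was worth 0.959 CPM in the library listed at 0 and 1.03 CPM in unstripped replicate 1, so both lay under it. The fitted differences had the largest SE of the 8 genes (-3.35, SE 1.64, adjusted p = 0.202 after stripping; 2.46, SE 1.59, adjusted p = 0.406 with NGO against stripped control skin).

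Neither regulator was called in any comparison. Insig1, itself a known SREBP target and the brake on SREBP processing, had 51.3, 59.5 and 87.7 CPM in unstripped, 173, 43.6 and 65.2 CPM in stripped control, and 46.6, 40.0 and 15.9 CPM in NGO-treated skin. Stripped control and unstripped libraries overlapped, and the NGO-treated libraries were all below the unstripped ones. Insig1 differed by 0.50 after stripping (SE 0.56, adjusted p = 0.634), by -1.46 with NGO against stripped control skin (SE 0.57, adjusted p = 0.161) and by -0.96 with NGO against unstripped skin (SE 0.57, adjusted p = 0.620). The value after stripping rested on TS replicate 1, without which it was -0.22.

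Srebf2, the gene of the transcription factor, had 47.2, 63.9 and 47.8 CPM in unstripped, 47.3, 69.8 and 21.1 CPM in stripped control, and 55.0, 38.7 and 13.2 CPM in NGO-treated skin. The groups overlapped in every comparison, and the spread within the stripped groups exceeded the distance between group means. Its differences were -0.20 (SE 0.59), -0.37 (SE 0.59) and -0.58 (SE 0.59), with 95% intervals that all held 0. These are levels of its mRNA; cleavage of the protein was not measured.

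**Figure D2:**
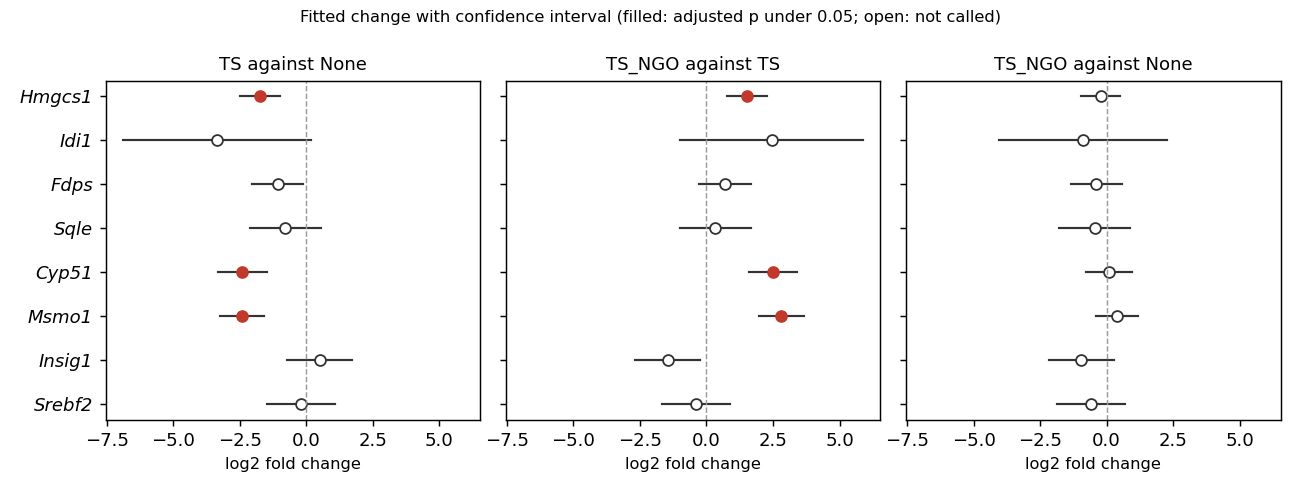
Log2 fold change of each gene with its 95% interval (horizontal axis, log2 units) in the 3 comparisons; filled points passed an adjusted p of 0.05. Hmgcs1, Cyp51 and Msmo1 are filled on the left of 0 for TS against None and on the right of 0 for TS_NGO against TS, and no point is filled for TS_NGO against None.

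Counted together, 3 of the 8 genes were called lower and 0 higher in stripped control against unstripped skin, where 7.64% of all tested genes were called lower and 5.97% higher. All stripped control libraries lay below all unstripped ones in 4 of the 8 (Fdps in addition), against 24.7% of all genes, and above them in 0, against 13.8%. The median difference of the 8 was -1.42, and that of all tested genes -0.20. With NGO against stripped control skin, 3 of 8 were called higher and 0 lower, where 3.87% of all genes were called higher and 1.18% lower. Groups were fully apart upwards in 5 of 8 (Fdps and Idi1 in addition), against 16.3% of all genes, and downwards in 0, against 8.92%; the medians were 1.11 and 0.07.

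For NGO-treated against unstripped skin, 0 of 8 genes were called in edgeR, and 0 in DESeq2 or limma-voom, where edgeR called 2.06% of all genes higher and 0.451% lower. No member had an unadjusted p under 0.05 in that comparison. The groups were apart downwards in 1 of 8 (Insig1), against 14.4% of all genes, and upwards in 0, against 11.9%. The median of the 8 was -0.42 and that of all genes -0.07. These intervals do not show equality: in all but Hmgcs1 and Cyp51 they leave room for a change of more than 1 log2 unit. The first and second comparisons share the stripped control libraries, so their values are not independent.

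The make-up of the 8-gene sum changed as well as its size. Msmo1 and Cyp51 supplied 19.0% ± 1.81 and 15.3% ± 4.27 of the members' counts in unstripped skin, 8.77% ± 2.43 and 7.27% ± 3.11 in stripped control skin, and 27.0% ± 3.61 and 18.0% ± 1.12 in NGO-treated skin (SD, n = 3). The mean part of Insig1 was 6.94% ± 2.001, 22.3% ± 9.37 and 3.79% ± 1.49 in the same order, and that of Srebf2 was 5.58% ± 1.31, 12.2% ± 7.39 and 3.93% ± 2.13. For Sqle it was 10.001% ± 0.823, 12.6% ± 8.89 and 7.81% ± 1.54, and for Fdps 9.93% ± 2.06, 12.1% ± 6.27 and 8.79% ± 3.96. A part of the sum grows when other members shrink, so these are no levels of the genes. They do not depend on the scaling of the libraries and were not tested.

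The other enzymes of the route gave the pathway around the members. Of 20 enzymes from acetyl-CoA to cholesterol, 19 passed the low-count filter, the 6 enzymes among the 8 genes included. After stripping 7 were called lower and 0 higher, among them Hmgcs1, Cyp51, Msmo1, Ebp, Hsd17b7 and Mvk. The fitted difference was below 0 in 19 of 19 (Fdft1 turned to above 0 without None replicate 1 or TS replicate 1), with a median of -1.62. With NGO against stripped control skin 6 were called higher and 0 lower, among them those just named except Mvk, 18 of 19 were fitted above 0, and the median was 1.53. Over all tested genes, 7.64% were called lower after stripping and 3.87% higher with NGO against stripped control skin. In NGO-treated against unstripped skin 0 of 19 enzymes were called, near the shares of all genes (2.06% higher, 0.451% lower). The median of the enzymes there was 0.03. These counts were less stable than those of the members: 4 enzymes were called lower after stripping with RLE or upper-quartile scaling or with only those 2 groups fitted, and 3 were called higher with NGO when only those 2 groups were fitted. The calls of Hmgcs1, Cyp51 and Msmo1 after stripping were kept in each of these settings, and those of Ebp, Hsd17b7 and Mvk were lost.

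Ebp, the sterol isomerase, had 141, 79.2 and 84.1 CPM in unstripped, 10.8, 40.4 and 47.0 CPM in stripped control, and 137, 117 and 127 CPM in NGO-treated skin. It fell by 1.62 (adjusted p = 0.0444) and was 1.95 higher with NGO (adjusted p = 0.0411). Hsd17b7, a ketoreductase of the demethylation complex in which Msmo1 acts, fell by 1.75 (adjusted p = 0.0496) and was 2.18 higher with NGO (adjusted p = 0.0408). Mvk, mevalonate kinase, fell by 2.58 (adjusted p = 0.0495). All 5 of these adjusted p-values lay near the threshold, and the calls were lost in 10 to 15 of the 18 other settings, any None or NGO library left out included.

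Among enzymes not called in any comparison, Acat2, Pmvk and Mvd of the mevalonate part differed after stripping by -0.47, -0.84 and -0.74. Nsdhl, which works with Msmo1, and Lss, which closes squalene epoxide to lanosterol, differed by -1.89 and -1.73 (adjusted p = 0.323 and 0.344). For Fdft1 (squalene synthase), Sc5d and Dhcr7 the values were -0.30, -1.09 and -0.45. Some of these genes were at 0 in 1 stripped control library: Fdft1 and Lss were listed at 0 CPM in TS replicate 1 while Fdft1 reached 102 CPM in TS replicate 2, and Nsdhl was at 0 in TS replicate 2. Tm7sf2, a sterol reductase, did not pass the filter. It was at 0 in all 3 stripped control libraries, and against a floor of 3 counts over the group it was at least 6.42-fold lower there than in unstripped skin.

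**Figure D3:**
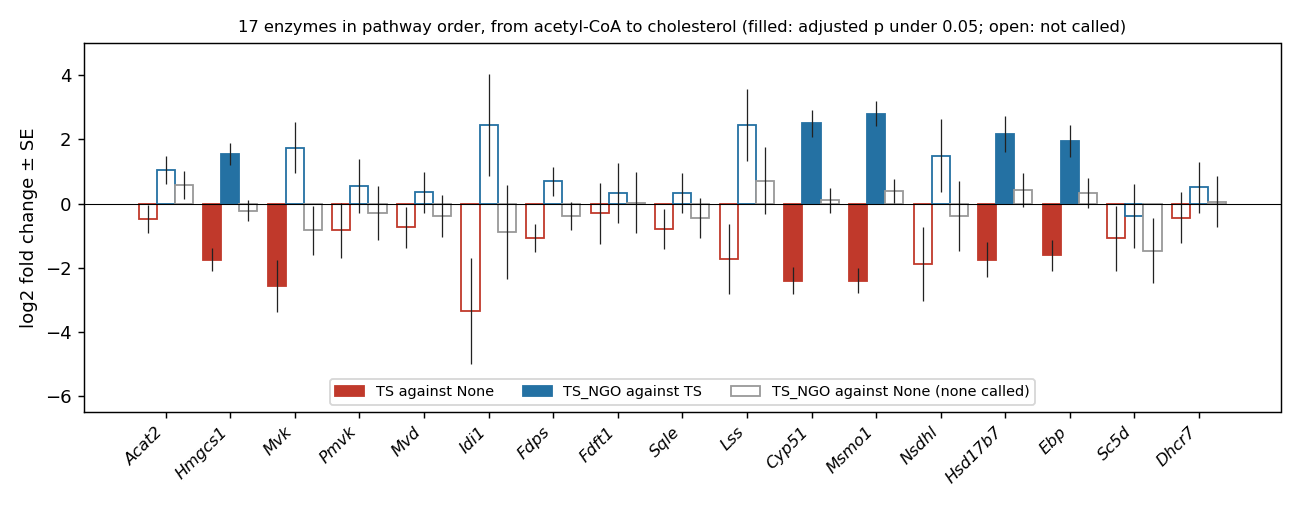
Log2 fold change with SE (vertical axis) of 17 enzymes in the order of the pathway, for the 3 comparisons; filled bars passed an adjusted p of 0.05. Filled bars lie mainly from Cyp51 onward, with Hmgcs1 and Mvk before it, and bars for TS_NGO against None are all open.

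The branch that uses farnesyl diphosphate for other purposes (ubiquinone, dolichol and protein prenylation) had 0 of 10 genes called in all 3 comparisons, a count near what the shares of all genes called would give, with a median of -0.59 after stripping and 0.51 with NGO against stripped control skin. Of 11 genes of SREBP processing and feedback, which include Srebf2 and Insig1, 3 were called lower after stripping and 1 was called higher with NGO. The shares over all genes were 7.64% and 3.87%, so the second count is near its share. The escort Scap had 294, 174 and 193 CPM in unstripped, 79.7, 95.0 and 39.3 CPM in stripped control, and 355, 208 and 228 CPM in NGO-treated skin. It fell by 1.63 (adjusted p = 0.0141) and was 1.89 higher with NGO (adjusted p = 0.0190). The first of these calls was lost without None replicate 1 and the second without NGO replicate 1 or with only the 2 groups fitted.

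Mbtps1, the Golgi protease that makes the first cut in SREBP, fell by 1.95 (SE 0.39, adjusted p = 0.00390) from 147 ± 33.6 to 38.0 ± 1.63 CPM. With NGO it stood at 75.9 ± 25.4 CPM, which was not called against either group. Erlin2, part of sterol-regulated protein degradation in the endoplasmic reticulum, fell by 3.05 (adjusted p = 0.0422), a call lost in 10 of 18 other settings. Insig1 and Srebf2 were thus among the 8 genes of this list that were not called after stripping.

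On the uptake and transport side, 1 of 10 genes was called higher after stripping, which is near the 5.97% of all genes. Scarb1, a receptor for high-density lipoprotein, had 25.7, 15.5 and 9.38 CPM in unstripped, 64.8, 70.8 and 90.5 CPM in stripped control, and 64.9, 132 and 133 CPM in NGO-treated skin. It was 2.16 higher after stripping (SE 0.49, adjusted p = 0.00923; 0.0528 without None replicate 3) and 2.71 higher in NGO-treated than in unstripped skin (SE 0.49, adjusted p = 0.00810). NGO-treated and stripped control libraries overlapped.

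In the list of efflux, esterification and oxysterol sensing, 1 of 9 genes was called, higher with NGO than in stripped control skin. That count is near what the 3.87% of all genes called higher would give. Soat1, which esterifies cholesterol for storage, was 1.96 higher with NGO than in stripped control skin (adjusted p = 0.0334, lost in 7 of 18 other settings). Of 3 tested genes of cholesterol sulphate metabolism, Papss1, which makes the sulphate donor, fell by 5.08 (SE 1.08, adjusted p = 0.00646). Its level was 107 ± 19.6 CPM in unstripped and 0, 0 and 8.95 CPM in stripped control skin. The size rests on TS replicate 3, without which the group is at 0 and the fitted value of -11.55 is no bound.

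Of 8 genes of fatty acid synthesis, which SREBP proteins also control, 4 were called lower after stripping, where 7.64% of all genes were. With NGO against stripped control skin 3 were called higher, where 3.87% of all genes were. Between NGO-treated and unstripped skin 0 were called, near the shares of all genes (2.06% higher, 0.451% lower). Fasn (fatty acid synthase) fell by 3.02 and was 2.86 higher with NGO, Elovl6 (an elongase) fell by 5.07 and was 4.999 higher, and Scd1 (a desaturase high in sebaceous glands) fell by 2.77 and was 2.57 higher. The calls of these 3 genes were kept in all 18 other settings. Acss2, which makes acetyl-CoA from acetate, was at 0 in all 3 stripped control libraries, at least 38.5-fold lower than in unstripped skin against a floor of 3 counts over the group. Its call was lost in 6 of 18 other settings: the replicate block (adjusted p = 0.0594), any None replicate left out, and TS replicate 2 or 3 left out.

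Marker lists of epidermal and glandular cells differed between the groups too. Beside the counts given here, 7.64% of all tested genes were called lower after stripping and 3.87% higher with NGO against stripped control skin. In NGO-treated against unstripped skin 0.451% were called lower. The 8 basal keratinocyte markers took 2.69% to 3.33% of counts in unstripped, 0.144% to 0.242% in stripped control, and 1.34% to 2.09% in NGO-treated libraries. After stripping 7 of these 8 were called lower, and with NGO 6 of 8 were called higher than in stripped control skin. The basal share of every NGO-treated library still lay below that of every unstripped one. In NGO-treated against unstripped skin 1 of 8 basal markers was called lower and 0 higher. There 6 were fitted lower and 2 higher, with a median of -0.54 (-0.07 over all genes). Krt5, the basal keratin, had 6762, 5819 and 6379 CPM, then 664, 835 and 409 CPM, then 7041, 4972 and 6537 CPM. Suprabasal and granular keratinocyte markers took 0.685% to 1.52%, 0.0188% to 0.0398% and 0.103% to 0.146% of counts, so the NGO-treated libraries stayed below all unstripped ones. Of these 8 markers 7 were called lower after stripping and 3 higher with NGO against stripped control skin, and 4 were lower in NGO-treated than in unstripped skin. Sebaceous gland markers took 0.125% to 0.180%, 0.0258% to 0.0490% and 0.125% to 0.193% of counts, with 2 of 9 called lower and then 4 of 9 called higher. This list includes Scd1 and Soat1, which are also counted in the lists of fatty acid synthesis and of esterification. Proliferation markers took 0.0652% to 0.124%, 0.0137% to 0.0402% and 0.122% to 0.164%, with 3 of 8 called lower and then 4 of 8 called higher. Top2a, a marker of dividing cells, had 561, 263 and 214 CPM, then 47.3, 31.7 and 50.5 CPM, then 492, 596 and 583 CPM. No basal marker was at 0 in any library, while 2 to 5 of 10 sebaceous markers were at 0 in the stripped control libraries.

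After stripping, muscle moved in the opposite direction, with 13 of 13 markers called higher, where 5.97% of all genes were. Actn3, a fast-fibre gene, had 7.53, 3.22 and 12.9 CPM in unstripped and 438, 685 and 973 CPM in stripped control skin. In NGO-treated skin it had 264, 209 and 530 CPM, which overlapped stripped control skin. With NGO 0 of 13 muscle markers were called against stripped control skin (1.18% of all genes were called lower and 3.87% higher). All 13 were fitted lower there, with a median of -1.49 (0.07 over all genes). Groups were fully apart downwards in 2 of the 13, against 8.92% of all genes. Compared with unstripped skin, 13 of 13 were called higher with NGO (2.06% of all genes were). The part of these shifts in the result for the 8 genes was not tested.

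Set against the basal markers, the 8 genes gave 31.5, 39.0 and 37.7 counts per 1000 basal marker counts in unstripped skin. They gave 231, 113 and 157 in stripped control skin and 47.9, 83.3 and 49.3 in NGO-treated skin. On this scale the order of the groups was the reverse of that in CPM: stripped control libraries were highest, since the basal markers fell further than the 8 genes did. Both scales are descriptions of the same counts, and neither gives a level per keratinocyte.

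**Figure D4:**
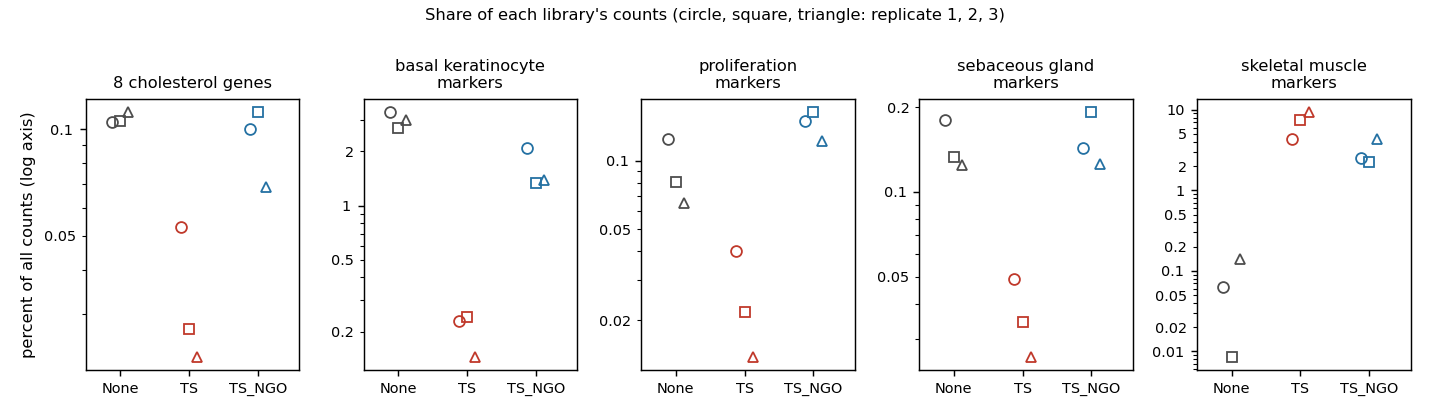
Share of all counts (percent, log axes that differ between panels) taken by the 8 cholesterol genes and by 4 marker lists in each library. The cholesterol genes and the basal, proliferation and sebaceous lists are lowest in the 3 TS libraries, and the muscle list is lowest in the None libraries.

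Over the 9 libraries, 10238 genes were ranked by the Pearson correlation of their log2 CPM with the mean standardised profile of the 8 genes. That mean is not a profile which all 8 share. Against the mean of the other members, r was -0.084 for Insig1 and 0.11 for Srebf2. For the enzymes among the 8 it ran from 0.53 (Idi1) to 0.78 (Cyp51). The 8 ranked genes with the highest r were Atxn7l3b (0.994), Ccdc120, Tppp, Tmppe, Pigf, Mfsd6, Ago4 and Phtf1 (0.973). None is an enzyme of sterol synthesis. Only 3 of them (Atxn7l3b, Tppp and Tmppe) were also among the top 8 by Spearman's rho. The points are 3 groups of 3 libraries that differ in depth and tissue content, so the ranking is a description and carries no p. The mean profile did not follow the groups strictly: TS replicate 1 stood at -0.082, above NGO replicate 3 at -0.208. TS replicates 2 and 3 stood at -1.01 and -0.998.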

How the data were processed

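Each of the 9 libraries (Lexogen Quant-Seq, 500 ng of total RNA) has 1 table deposited by the authors, with whole-number counts of each gene symbol. Bowtie2, bedtools and mm10 are named, per the submitters' processing notes, without versions or roles; the handling of strand and of reads with several matches is not stated.

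Counts were fitted in R 4.3.3 with the edgeR 4.0.16 quasi-likelihood test (robust), TMM factors and filterByExpr, all 9 libraries sharing 1 estimate of the spread (6 residual degrees of freedom), with Benjamini-Hochberg adjustment over 13740 genes. CPM values use TMM-scaled library sizes. The code of the fit was also run on simulated counts. Those held no shift in tissue content, so the run bears on the code alone. Alternatives were RLE and upper-quartile scaling, no filter, at least 20 counts in 3 libraries, DESeq2 1.42.0, voom (limma 3.58.1), the replicate block, the 2 compared groups alone, library sizes without genes of other tissues, and leaving out each library. With 3 libraries against 3, no exact permutation test could reach a two-sided p below 0.1.

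The 8 genes and all lists were chosen with earlier results of these data known. Beyond the 8, the text names enzymes of the synthesis lists, called genes of the other pathway lists (at most 4 each), 8 genes most like the members, and Krt5, Top2a, Scd1 and Actn3. In these lists 2 enzymes and 1 receptor are counted but not reported by name here. No pair of libraries of a group agreed within sampling noise. Floors of 3 counts cover counting error alone.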

Additional observations from a re-analysis of the deposited data

How the results depend on the processing

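Between 3 and 4 of the 8 genes were called lower after stripping and 2 to 3 higher with NGO against stripped control skin in the 18 alternatives (leave-one-out ranges 3 to 4 and 2 to 3), and 0 between NGO-treated and unstripped skin. Enzymes called lower after stripping numbered 4 with RLE scaling, with upper-quartile scaling and with only the 2 groups compared, and 4 to 7 with a library left out; enzymes called higher with NGO numbered 3 with only the 2 groups compared and 3 to 7 with a library left out. The count of all genes called (1870, 694 and 345 for the 3 comparisons in the order of the report) was 2976, 1721 and 756 with DESeq2, 414 and 1352 for TS_NGO against TS and against None with voom, and 118 and 602 for the same with only the 2 groups compared. It ran from 1159 to 2124, 206 to 929 and 214 to 495 with a library left out. The last 2 settings also fit fewer samples, and the counts moved both up and down in them. The cause of the shifts was not tested. RLE scaling moved the median of all genes after stripping from -0.20 to -0.07 (a shift of 0.13), so changes are best read against those medians.

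A change of sign appeared in 26 of 1673 gene and setting pairs, none of a called value. With voom, Insig1 after stripping was -0.059, and against unstripped skin with NGO Dhcr7 was -0.18 and Fasn 0.18; with the replicate block Fdft1 was -0.023 there. With a library left out, the ranges that crossed 0 were, after stripping, Fdft1 -1.12 to 0.35, Insig1 -0.22 to 0.82, Srebf2 -0.66 to 0.15. With NGO against stripped control skin they were Dhcr7 -0.060 to 1.66, Fdft1 -0.29 to 1.18, Mvd -0.071 to 1.16, Sc5d -1.01 to 1.02, Sqle -0.11 to 1.42, Srebf2 -0.82 to 0.076. With NGO against unstripped skin they were Cyp51 -0.064 to 0.38, Dhcr7 -0.47 to 0.42, Elovl6 -0.27 to 0.041, Fasn -0.39 to 0.26, Fdft1 -0.19 to 0.35, Scap -0.023 to 0.52.

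Whether equal replicate numbers pair the samples is not in the labels, and deviations within groups of 3 libraries could not settle it. Of 9 same-numbered pairs, 1 had a correlation of deviations over 0.1 (from -0.08 to 0.12). Best correlation with their own number was seen in 5 of 9 libraries. With the replicate block, 3, 3 and 0 of the 8 genes, 5, 4 and 0 enzymes and 1650, 559 and 313 of all genes were called. Idi1 had 0 to 10 counts in the stripped control libraries and 1 in unstripped replicate 1, so its values carry wide counting error.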
